A study of Mus musculus with 6 samples.

Results

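The variable segments of the T cell receptor alpha and beta chains were taken as every gene whose symbol starts with Trav or Trbv followed by a number. There were 163 such genes among the 34745 of each library, 128 for the alpha chain and 35 for the beta chain. They were measured by RNA-seq in effector CD8+ T cells (Teff) from 3 WT (C57BL/6J) and 3 Scd-1-/- (B6.129-Scd1tm1Ntam/J) libraries. The mice were male and 6 to 8 weeks old, and the knockout is a germline one, carried by all cells of the animal. The WT mice were bought from a supplier and the Scd-1-/- mice were donated by another institute. They are not described as littermates, so source and genotype cannot be told apart. In both genotypes CD8+ T cells were isolated from the spleen with magnetic beads by removal of other cells. They were activated for 3 days with IL-2 (100 U/mL) and with antibodies to CD28 (0.5 μg/mL) and CD3 (5 μg/mL), grown for a further 3 days in IL-2 without the antibodies, and harvested on day 6. Neither the labels nor the methods say whether the 3 replicates of a genotype were separate mice or cultures. The paper speaks in general of at least 3 independent experiments per result, without saying how this applies to the libraries. Each p-value thus measures only the spread between these libraries, which may be technical.

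A T cell receptor is a pair of chains, and each alpha-beta T cell makes its own by joining gene segments in the thymus. The alpha chain joins a variable (V) to a joining (J) segment, and the beta chain adds a diversity segment between them. The V segment encodes most of the part that meets peptide and MHC, including the first and second complementarity-determining loops, while the third loop is made at the junction. The constant regions, Trac for alpha and Trbc1 or Trbc2 for beta, are shared by all receptors. A polyclonal spleen population therefore transcribes most functional V segments, and an expanded clone raises a single segment of each chain. Counts per gene give the use of V segments, not the junctions, so they do not count clones.

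The libraries held 14034479 to 15866216 counts. Scd1, the deleted gene, had 3074 to 4272 counts in WT and 20 to 36 in Scd-1-/- libraries. The CD8 T cell markers Cd8a, Cd8b1, Cd3d, Cd3e, Cd3g and Trac were present in every library, and their summed level was 2759 to 3360 CPM (counts scaled to a common library total) in WT and 2554 to 2981 CPM in Scd-1-/- libraries. Among the defining markers of other cells, Ms4a1 and Pax5 (B cells) and Adgre1 (macrophages) were at 0 in all 6 libraries. Cd4, the coreceptor of helper T cells, had 8, 24 and 12 counts in WT and 5, 2 and 1 in Scd-1-/- libraries, without overlap (−2.49 on the log2 scale, SE 0.82, unadjusted p = 0.012 and adjusted p = 0.344; edgeR). Of the other CD4 T cell markers, Zbtb7b differed by 0.18 and Foxp3 (0 to 5 counts) by 0.10, Cd40lg had 0, 5 and 2 counts in WT and 0 in all Scd-1-/- libraries, and the summed list overlapped (43.3 to 84.3 CPM in WT and 56.6 to 79.5 CPM in Scd-1-/- libraries). Ighm, the immunoglobulin mu constant region and also on the B cell list, had 8703, 5656 and 4288 counts in WT and 4780, 2957 and 3589 in Scd-1-/- libraries, with overlap. Its difference was −0.77 (SE 0.27, adjusted p = 0.387; edgeR), and with the replicate number as a block −0.73 (adjusted p = 0.0262). The summed level of the 5 myeloid markers was 0.499 to 1.78 CPM in WT and 3.59 to 7.13 CPM in Scd-1-/- libraries. It came mostly from Cd14 (11, 5 and 4 counts in WT and 28, 42 and 40 in Scd-1-/- libraries) and Itgam (16, 0 and 5 in WT and 83, 13 and 16). Lyz2 and Csf1r had 0 to 4 counts.

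The V segments are short, and many are near-copies of each other, because a block of the mouse alpha locus was copied in evolution. On GRCm38, the alpha segments span chr14:52427928-53977678, all on the plus strand, and the letters d and n in their symbols mark the copied blocks. The beta segments span chr6:40891229-41558452, where Trbv31 alone lies on the minus strand. The V exon of segments on which the results turn is given here 5′ to 3′ on the coding strand, from GENCODE M21 transcripts and up to its first 300 bases. Trav16 and Trav16n were the alpha segments with most counts, and their V exons differ at 4 of 301 positions, in capitals.
Trav16 (chr14:53743405-53743704): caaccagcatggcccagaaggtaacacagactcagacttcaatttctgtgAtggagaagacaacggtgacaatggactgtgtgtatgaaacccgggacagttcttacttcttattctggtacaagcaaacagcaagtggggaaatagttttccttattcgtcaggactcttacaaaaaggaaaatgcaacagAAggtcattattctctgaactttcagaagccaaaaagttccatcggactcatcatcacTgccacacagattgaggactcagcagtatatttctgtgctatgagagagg
Trav16n (chr14:53351321-53351620): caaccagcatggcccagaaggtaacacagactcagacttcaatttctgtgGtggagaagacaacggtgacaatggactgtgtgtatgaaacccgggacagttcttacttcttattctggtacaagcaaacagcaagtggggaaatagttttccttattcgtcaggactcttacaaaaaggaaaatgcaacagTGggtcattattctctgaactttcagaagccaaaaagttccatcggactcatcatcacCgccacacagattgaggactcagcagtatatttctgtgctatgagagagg

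Trav11, which joins Traj18 in the receptor of invariant natural killer T (iNKT) cells, shows the other extreme. Its V exon matches that of Trav11d (chr14:52824623-52824912) over all 290 bases of the latter, so no base is in capitals.
Trav11 (chr14:53519569-53519859): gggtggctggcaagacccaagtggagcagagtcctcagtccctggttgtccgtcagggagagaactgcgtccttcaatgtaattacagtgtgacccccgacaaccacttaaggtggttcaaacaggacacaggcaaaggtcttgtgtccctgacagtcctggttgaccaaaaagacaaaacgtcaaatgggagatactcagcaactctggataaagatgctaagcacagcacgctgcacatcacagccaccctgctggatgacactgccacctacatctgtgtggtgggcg

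Trav15-1-dv6-1 and Trav15-2-dv6-2, which had the largest rises of the tested segments in Scd-1-/- libraries, are less alike. Both can also be used by the delta chain of gamma delta T cells, as the dv in their symbols says. Capitals mark the bases that differ in an alignment of the pair (64 differing positions).
Trav15-1-dv6-1 (chr14:53559945-53560244): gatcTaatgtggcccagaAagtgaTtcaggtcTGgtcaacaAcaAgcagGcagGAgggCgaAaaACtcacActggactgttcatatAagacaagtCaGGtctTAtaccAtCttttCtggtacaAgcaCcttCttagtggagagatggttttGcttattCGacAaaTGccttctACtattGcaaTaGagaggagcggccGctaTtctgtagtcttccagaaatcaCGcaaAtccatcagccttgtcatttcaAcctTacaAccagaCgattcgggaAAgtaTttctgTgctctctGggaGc
Trav15-2-dv6-2 (chr14:53649695-53649994): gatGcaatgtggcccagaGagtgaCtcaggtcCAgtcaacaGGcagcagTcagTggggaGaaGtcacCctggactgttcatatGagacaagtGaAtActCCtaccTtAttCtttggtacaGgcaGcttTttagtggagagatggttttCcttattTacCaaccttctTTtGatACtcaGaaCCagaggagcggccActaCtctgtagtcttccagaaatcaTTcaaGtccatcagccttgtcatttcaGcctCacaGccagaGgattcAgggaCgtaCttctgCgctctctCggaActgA

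Trbv13-2 and Trbv13-3 are the most alike pair among the abundant beta segments, yet with Trbv13-1, the third member of their subgroup, they differ at 49 of 294 positions, in capitals.
Trbv13-1 (chr6:41116175-41116468): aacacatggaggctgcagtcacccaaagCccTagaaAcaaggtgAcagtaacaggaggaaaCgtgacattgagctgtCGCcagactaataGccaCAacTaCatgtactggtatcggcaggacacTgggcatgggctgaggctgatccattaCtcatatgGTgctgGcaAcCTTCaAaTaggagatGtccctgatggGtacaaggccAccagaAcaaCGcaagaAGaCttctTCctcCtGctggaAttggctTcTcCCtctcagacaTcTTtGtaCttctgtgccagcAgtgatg
Trbv13-2 (chr6:41121539-41121832): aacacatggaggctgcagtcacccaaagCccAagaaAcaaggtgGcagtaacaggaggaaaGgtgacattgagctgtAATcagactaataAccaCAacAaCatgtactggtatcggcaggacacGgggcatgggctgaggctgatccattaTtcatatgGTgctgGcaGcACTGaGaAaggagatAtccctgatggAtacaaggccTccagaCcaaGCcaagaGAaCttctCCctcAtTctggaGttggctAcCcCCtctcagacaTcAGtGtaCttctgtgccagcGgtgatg
Trbv13-3 (chr6:41130292-41130585): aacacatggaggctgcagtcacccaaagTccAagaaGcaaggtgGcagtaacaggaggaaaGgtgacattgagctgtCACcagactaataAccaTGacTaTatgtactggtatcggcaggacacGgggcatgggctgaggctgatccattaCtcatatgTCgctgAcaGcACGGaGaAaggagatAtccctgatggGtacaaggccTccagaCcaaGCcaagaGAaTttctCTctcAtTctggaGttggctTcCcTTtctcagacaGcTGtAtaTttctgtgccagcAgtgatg

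First, which segments were counted at all was examined. Of the 128 alpha segments, 76 had a count in some library, 61 had one in every library, and 52 were at 0 in all 6. The annotation calls 108 of the alpha segments functional and 20 pseudogenes. A total of 38 functional segments were at 0, and 36 of these were 100% identical to another segment over the shorter transcript. By contrast, 2 of the 70 functional segments with a count had such an identical partner. A stretch of 50 bases found in no other V segment made up a median of 0.0% of the functional segments at 0 and of 55.2% of those with a count.

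Trav11 had 1 count in WT replicate 2 and 0 in the other libraries, and Trav11d was at 0 in all of them. In contrast, Trav16 and Trav16n, with their 4 differing bases, both had 88 to 169 counts per library. How reads that match several segments were counted is not given in the sources used here, so a 0 in a segment with an identical copy says nothing about its use. Traj18 (0 to 3 counts) and Traj33 (0 to 1 counts), the joining segments of the iNKT and mucosal-associated invariant T cell receptors, were near 0 as well, as were joining segments in general: all Traj genes together had 22 to 33 counts per library and all Trbj genes 79 to 157. Trav1, the V segment of mucosal-associated invariant T cells, had 5 to 20 counts in WT and 4 to 12 in Scd-1-/- libraries. The 5 markers of these invariant T cells summed to 0.844 to 1.57 CPM in WT and 0.355 to 0.899 CPM in Scd-1-/- libraries.

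**Figure D1:**
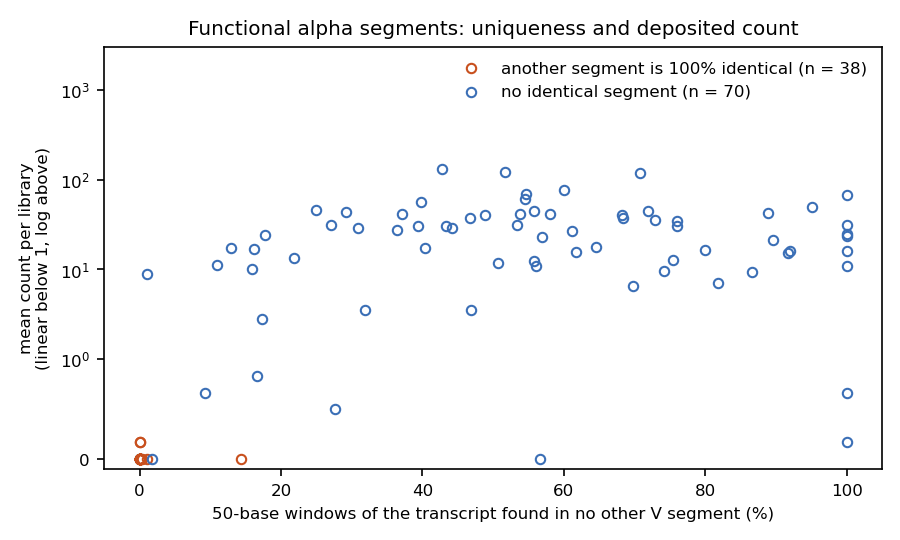
Mean count per library of the 108 functional alpha segments (vertical axis, linear below 1 and logarithmic above) against the percentage of 50-base windows of the transcript that occur in no other V segment (horizontal axis). Of the 38 segments with an identical partner, 36 sit at 0 counts, whereas 68 of the 70 without one have counts.

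The beta locus holds no such copies. All 22 functional beta segments had a count, with a median of 100% unique windows, and the 9 beta segments at 0 were all pseudogenes. Pseudogenes took at most 0.257% of the beta and 1.10% of the alpha variable counts of a library. Beta shares can therefore be read segment by segment, whereas an alpha share depends on how reads that match several segments were counted.

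Next, the total of V segment counts was compared between the genotypes. The alpha segments summed to 2672, 1924 and 1891 counts in WT and to 2114, 1735 and 2010 in Scd-1-/- libraries. The beta segments summed to 8677, 6769 and 5758 counts in WT and to 7070, 6437 and 7383 in Scd-1-/- libraries. Together they made up 0.0538% to 0.0748% of a library, and the groups overlapped for both chains. Relative to WT, the summed alpha counts differed by −0.19 on the log2 scale (SE 0.16, adjusted p = 0.764) and the summed beta counts by −0.07 (SE 0.16, adjusted p = 0.931). These p-values come from the quasi-likelihood test of edgeR, with adjustment by Benjamini-Hochberg over all genes tested. The beta value was 0.09 without WT replicate 1. In bulk RNA, fewer cells with a receptor and less receptor RNA per cell cannot be told apart.

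The constant regions gave a second measure of receptor RNA. Trac had 6186 to 9029 counts in WT and 6462 to 7946 in Scd-1-/- libraries, and Trbc1 and Trbc2 together had 9428 to 12319 and 10916 to 14057. Per 100 Trac counts there were 29.6, 29.2 and 30.6 alpha V counts in WT, and 26.6, 26.8 and 27.1 in Scd-1-/- libraries. Per 100 Trbc counts there were 70.4, 69.1 and 61.1 beta V counts in WT, and 52.5, 59.0 and 52.5 in Scd-1-/- libraries. Both ratios were lower in every Scd-1-/- library than in every WT library. When the libraries were scaled to the constant region, the difference was −0.15 for alpha (SE 0.16, adjusted p = 0.987) and −0.29 for beta (SE 0.15, adjusted p = 0.393; edgeR). Neither passed, but this fit took the expected spread of a gene from before that scaling and pooled it over genes. Its SE and p thus do not measure the spread of these ratios between libraries, which was not tested. Trbc2 took 74.1% to 78.3% of the Trbc counts in all 6 libraries.

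The other genes needed to make or carry the receptor were taken from a list of 13. Rag1, Rag2 and Ptcra, which act in the thymus, were at 0 in every library, and 0 of the remaining 10 had an adjusted p under 0.05 in edgeR, a threshold that 0.114% of all genes tested reached. The CD3 chains Cd3d, Cd3e, Cd3g and Cd247, which carry the signal of the receptor, differed by −0.03, −0.0015, −0.0051 and 0.01 on the log2 scale. Cd8a, a chain of the CD8 coreceptor, had 332, 366 and 362 CPM in WT and 282, 215 and 259 CPM in Scd-1-/- libraries. Its groups did not overlap, but the difference of −0.46 did not pass (SE 0.14, adjusted p = 0.297; edgeR). Dntt, the enzyme that adds bases at the junctions, had 18, 31 and 29 counts in WT and 9, 2 and 1 in Scd-1-/- libraries (−2.74 on the log2 scale, SE 0.73, unadjusted p = 0.00329 and adjusted p = 0.193; edgeR).

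The use of single segments was then tested. Of the 163 segments, 79 reached a mean FPKM of 1 over the 6 libraries (57 alpha and 22 beta) and entered the test of 9627 genes. A segment whose counts were low in 1 genotype could pass this minimum through the other. None of the 79 (0) passed the study's thresholds (an unadjusted p under 0.001 and a change by 1 or more on the log2 scale), against 0.738% of all genes tested. Likewise, 0 had an adjusted p under 0.05 in edgeR's quasi-likelihood test, against 0.114% of all genes, and the smallest adjusted p was 0.376. At an unadjusted p under 0.05 there were 4 (10.1% of all genes), and DESeq2 gave 2. With the replicate number as a block, which raised the share of all genes with an adjusted p under 0.05 to 4.7%, again 0 segments were called. The median log2 fold change was −0.24 over the 57 alpha and 0.00082 over the 22 beta segments, and −0.00051 over all genes tested. With 1 library left out, the alpha median ran from −0.31 to −0.13 and the beta median from −0.11 to 0.086. By sign, 27 of the 79 were higher and 52 lower in Scd-1-/- libraries, and 41 and 38 when each library was scaled to the V counts of the chain. The scaling to the alpha counts put the median of all genes at 0.17, which is no reference for the beta segments. The counts by sign rested on single libraries: they were 17 and 62 without WT replicate 3 and 36 and 43 without WT replicate 1. For beta alone, 12 and 10 became 5 and 17 without WT replicate 3. The CPM of 6 of the 79 segments (7.59%), all alpha and all lower in Scd-1-/- libraries, did not overlap between the genotypes, against 16% of all genes tested.

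To compare use independently of the amount of receptor RNA, each segment was expressed as a share of the V counts of its chain in the same library. Shares of a chain sum to 100%, so they do not move independently. The 95% Wilson interval of the share of 1 of the 8 most abundant segments in 1 library was 1.05 to 1.49 percentage points wide for beta and 1.21 to 2.39 for alpha. These intervals cover counting error only. Segments are compared with each other per length, by their CPM per kilobase of the longest annotated transcript, and with themselves between libraries by their share of counts. The deposited FPKM was not used for the former, since its length was the sum over all transcripts of a gene in 97 of the 102 segments with an FPKM above 0 (within 1 base). This matters only for segments with more than 1 transcript, which were 29 of the 102.

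Use of the beta segments was uneven but broad. The 19 segments with a mean share of at least 1% held 99.08% of the counts, and 7 segments held 50% of the counts in each of the 6 libraries. Trbv16 had the highest mean level per length (107 ± 16.4 CPM per kilobase, SD, n = 6 libraries), followed by Trbv29 (99.8 ± 16.4), Trbv13-2 (99.0 ± 18.6) and Trbv15 (96.4 ± 11.6). These neighbours in the order did not differ beyond their spread. The order was not the same in both genotypes: Trbv13-1 came first in WT (mean 108, against 106 for Trbv16) but had 74.0 in Scd-1-/- libraries, below Trbv1, Trbv12-2 and Trbv3 as well. Its first place in WT rested on replicate 1, since per length it lay below Trbv16 in WT replicates 2 and 3. Trbv16 took 9.27%, 8.47% and 8.06% of the beta counts in WT and 9.72%, 9.12% and 9.18% in Scd-1-/- libraries. Its groups overlapped, and the fold change was 0.04 on the log2 scale (SE 0.21). Trbv1, the segment farthest from the constant regions, took 8.03% ± 1.14 of the WT and 7.67% ± 1.02 of the Scd-1-/- beta counts (mean ± SD, n = 3 libraries). Trbv31, which lies beyond the constant regions and joins by inversion, took 2.02% ± 0.19 and 1.76% ± 0.18. Both ends of the locus were thus used to overlapping degrees in the genotypes. The shares of Trbv3, Trbv15, Trbv19, Trbv29 and Trbv13-2 overlapped between the genotypes as well, with mean differences from −0.43 to 0.65 percentage points.

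Of the 22 beta segments tested, the shares of 5 (22.7%) did not overlap between the genotypes, against 10.6% of all genes tested when counted per beta V count. Among those with a mean share of at least 1%, 2 were lower (Trbv13-1 and Trbv12-1) and 2 higher (Trbv20 and Trbv26) in Scd-1-/- libraries. Trbv13-1 took 9.17%, 7.65% and 7.14% of the beta counts in WT and 5.76%, 5.61% and 6.34% in Scd-1-/- libraries. Every Scd-1-/- value thus lay below the lowest WT value, with a mean difference of −2.09 percentage points. The difference was −2.22 when shares were taken per length of the longest transcript, and smaller by the deposited FPKM, as given further below. In CPM, the fold change of Trbv13-1 was −0.53 on the log2 scale (SE 0.24), which did not pass (adjusted p = 0.532; edgeR).

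Trbv12-1, the neighbour of Trbv13-1 on the chromosome, had shares of 6.79%, 6.62% and 5.44% in WT and of 5.02%, 4.29% and 4.93% in Scd-1-/- libraries. Its fold change was −0.49 (SE 0.24, adjusted p = 0.557; edgeR). The next segments along the locus overlapped between the genotypes. Trbv12-2, 88.3% identical to Trbv12-1 and chosen after its values were seen, took 6.11% in WT and 6.94% in Scd-1-/- libraries on average, and Trbv13-2 took 7.31% ± 0.49 and 6.89% ± 1.13. Trbv13-3 took 3.66% ± 0.49 and 3.18% ± 0.25.

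Trbv20 was higher, at 2.44%, 2.44% and 2.54% in WT and 3.86%, 2.97% and 3.07% in Scd-1-/- libraries. Its fold change was 0.35 (SE 0.22, adjusted p = 0.654; edgeR). Each of the shares of Trbv13-1, Trbv12-1 and Trbv20 reached p = 0.1 in an exact two-sided permutation test, the smallest p that 3 libraries against 3 allow. Any segment without overlap gives this p, so it adds nothing to the lack of overlap. Among the beta segments with a mean share of at least 1%, the largest ratio between libraries belonged to Trbv5 (1.73-fold, from 1.48% in WT replicate 1 to 2.56% in Scd-1-/- replicate 3), whose mean shares were 2.01% and 2.04%. Trbv2 ranged from 2.07% in WT replicate 1 to 3.38% in WT replicate 2, so its spread lay within 1 genotype.

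**Figure D2:**
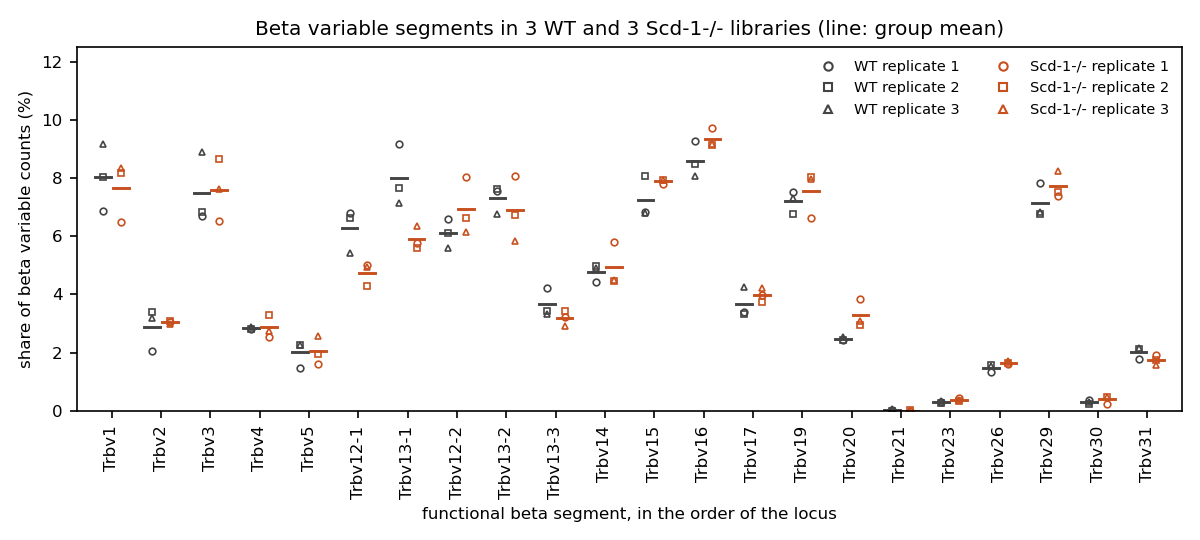
Share of each of the 22 functional beta segments among the beta variable counts of a library (percent, vertical axis), in the order of the locus (horizontal axis), with a symbol per library and a line at the mean of each genotype. Trbv13-1 and Trbv12-1 sit lower in all 3 Scd-1-/- libraries, Trbv20 higher, and most other segments overlap.

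Use of the alpha segments was spread over more genes. The 38 segments with a mean share of at least 1% held 84.59% of the counts, and 14 to 16 segments held 50% of the counts of a library. Per length, Trav16n (21.3 ± 5.17 CPM per kilobase, SD, n = 6 libraries), Trav16 (19.6 ± 2.94) and Trav12-2 (18.9 ± 3.398) were highest and did not differ beyond their spread, and Trav13-1 (13.98 ± 2.38) and Trav3-3 (12.45 ± 1.93) came next. Trav16n took 6.32%, 5.87% and 7.56% of the alpha counts in WT and 7.85%, 5.07% and 5.17% in Scd-1-/- libraries. Its near-copy Trav16 took 5.73%, 6.29% and 6.40% in WT and 4.64%, 6.34% and 6.42% in Scd-1-/- libraries. In Scd-1-/- replicate 1 the former was at its highest and the latter at its lowest, and the sum of the Trav16 subgroup overlapped between the genotypes (14.4% ± 0.80 and 14.3% ± 0.72). Trav12-2 took 5.41% ± 0.67 and 6.17% ± 0.51.

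Of the 57 alpha segments tested, the shares of 8 (14.04%) did not overlap, against 19.3% of all genes tested when counted per alpha V count. Among the 38 abundant ones, 3 were higher and 2 lower in Scd-1-/- libraries. Trav19, which has no close copy, took 3.29%, 2.60% and 2.54% in WT and 3.93%, 3.86% and 3.58% in Scd-1-/- libraries. The Scd-1-/- values were above all WT values, and the fold change in CPM was 0.21 (SE 0.30, adjusted p = 0.884; edgeR). Trav10n took 1.35%, 2.18% and 1.37% in WT and 0.99%, 0.92% and 1.19% in Scd-1-/- libraries, with a fold change of −0.82 (SE 0.32, unadjusted p = 0.0361 and adjusted p = 0.453; edgeR). Its near-copy Trav10 (98.2% identical) took 2.98% ± 0.83 and 2.41% ± 0.58, with overlap. Its closest copy, Trav10d (99.1% identical, named after its values were seen), took 1.00% ± 0.15 and 0.63% ± 0.24, also with overlap. The sum of the Trav10 subgroup did not overlap. It was 5.73%, 5.35% and 5.76% in WT and 3.64%, 4.55% and 4.03% in Scd-1-/- libraries (adjusted p = 0.408; edgeR on CPM).

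Trav7-3 and Trav7d-3 were the most alike pair among the abundant segments (99.0% identical). Trav7-3 took 2.47%, 2.44% and 2.12% in WT and 1.94%, 2.07% and 1.69% in Scd-1-/- libraries, whereas Trav7d-3 ranged from 1.11% to 2.70% in WT alone. Trav13-4-dv7 took 1.61%, 0.73% and 1.00% in WT and 1.66%, 1.61% and 2.44% in Scd-1-/- libraries, so WT replicate 1 all but reached the lowest Scd-1-/- value. Trav6-7-dv9 (2.29% ± 0.55 and 1.53% ± 0.63), Trav7-6 (1.38% ± 0.39 and 0.81% ± 0.32) and Trav6-1 (1.18% ± 0.11 and 0.87% ± 0.37) had lower means with overlap. For these 3, the fold changes were −0.76, −0.95 and −0.61 with adjusted p of 0.608, 0.532 and 0.684 (edgeR). Shares of the abundant Trav3-3, Trav13-1 and Trav14-2 also overlapped between the genotypes.

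**Figure D3:**
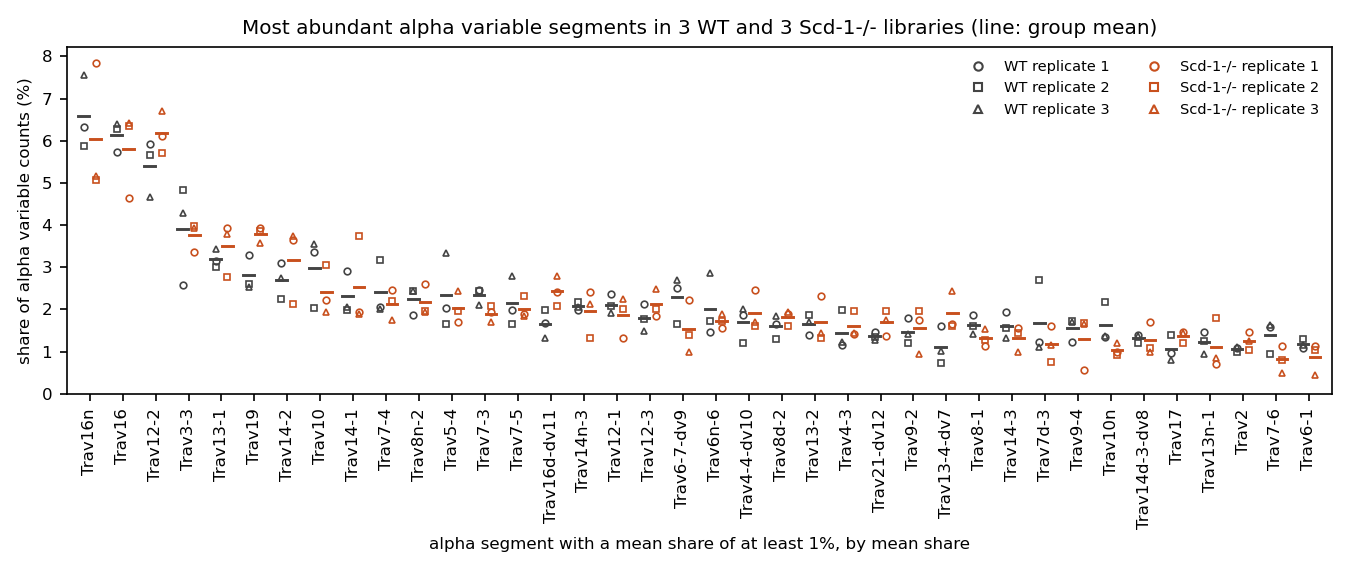
Share of each of the 38 alpha segments with a mean share of at least 1% among the alpha variable counts of a library (percent, vertical axis), ordered by mean share (horizontal axis), with a symbol per library and a line at the mean of each genotype. Trav16n, Trav16 and Trav12-2 take between 4.64% and 7.85% in every library, and the 2 genotypes overlap for 33 of the 38 segments.

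The segments with the largest rises among those tested were a pair of low abundance, outside the rule for named genes and named here after their values were seen. Trav15-1-dv6-1 had 12, 8 and 5 counts in WT and 10, 21 and 41 in Scd-1-/- libraries. Trav15-2-dv6-2 had 12, 2 and 6 counts in WT and 10, 38 and 27 in Scd-1-/- libraries. By count, Scd-1-/- replicate 1 lay within the WT range for both, while replicates 2 and 3 lay above it. By share of the alpha counts, all 3 Scd-1-/- libraries lay above WT for both segments, replicate 1 narrowly so (0.473% against at most 0.449%). The fold changes were 1.46 (SE 0.58, adjusted p = 0.453) and 1.87 (SE 0.68, adjusted p = 0.414) on the log2 scale in edgeR, with unadjusted p of 0.0366 and 0.0268. The mean FPKM of Trav15-1-dv6-1 was 0.766 in WT and 2.11 in Scd-1-/- libraries, so it reached the minimum of 1 only through the genotype in which it was higher, and its p is not independent of that choice. Without Scd-1-/- replicate 3, the fold change of Trav15-1-dv6-1 was 0.89.

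The Trav15 subgroup as a whole took 0.90%, 0.52% and 0.58% of the alpha counts in WT and 0.95%, 3.401% and 3.38% in Scd-1-/- libraries. Its fold change was 1.67 (SE 0.55, unadjusted p = 0.0175 and adjusted p = 0.364; edgeR). As these segments can join the delta chain, the delta constant region was set beside them. Trdc had 153, 76 and 73 counts in WT and 471, 741 and 1046 in Scd-1-/- libraries (2.86 on the log2 scale, SE 0.39, unadjusted p = 9.64e-05 and adjusted p = 0.0629; edgeR), so it passed the study's thresholds, and with the replicate block its adjusted p was 0.00985. It was highest in the same pair of libraries as Trav15, but was raised in Scd-1-/- replicate 1 too.

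The other marker of gamma delta T cells with a row under its symbol, Sox13, had 0 to 3 counts, and the summed level of the list was 5.20 to 10.1 CPM in WT and 30.3 to 65.9 CPM in Scd-1-/- libraries. The summed level of the 4 natural killer cell markers was 5.74 to 10.8 CPM and 19.8 to 73.9 CPM, and the members did not move alike. Tyrobp, an adaptor of activating receptors, had 17, 17 and 31 counts in WT and 108, 239 and 282 in Scd-1-/- libraries, which passed the study's thresholds (3.23 on the log2 scale, SE 0.45, unadjusted p = 0.000125 and adjusted p = 0.0646; edgeR). Klrb1c, the NK1.1 antigen, had 37 to 65 counts in WT and 126 to 645 in Scd-1-/- libraries, without overlap. Fcgr3, an Fc receptor, had 33 to 74 and 75 to 222 counts, but overlapped in CPM (4.82 in Scd-1-/- replicate 1 and 5.27 in WT replicate 2). Neither passed the study's thresholds (unadjusted p of 0.00113 and 0.015, adjusted p of 0.121 and 0.352; edgeR). Their mean FPKM was 0.748 and 0.973 in WT and 6.28 and 2.61 in Scd-1-/- libraries, so both reached the minimum of 1 only through the genotype in which they were higher. With the replicate block, the adjusted p was 0.0025 for Tyrobp, 0.00591 for Klrb1c and 0.0264 for Fcgr3 (edgeR). Ncr1, the defining receptor of natural killer cells, had 0 to 5 counts. The part of gamma delta T cells or natural killer cells in the Trav15 values was not tested. All 10 segments with dv in their symbol took 11.4%, 8.63% and 10.3% of the alpha counts in WT and 12.8%, 13.1% and 14.03% in Scd-1-/- libraries. The groups did not overlap. Without Trav15-2-dv6-2 the means were 9.81% ± 1.23 and 11.98% ± 0.91, and WT replicate 1 (10.97%) just exceeded Scd-1-/- replicate 2 (10.95%).

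**Figure D4:**
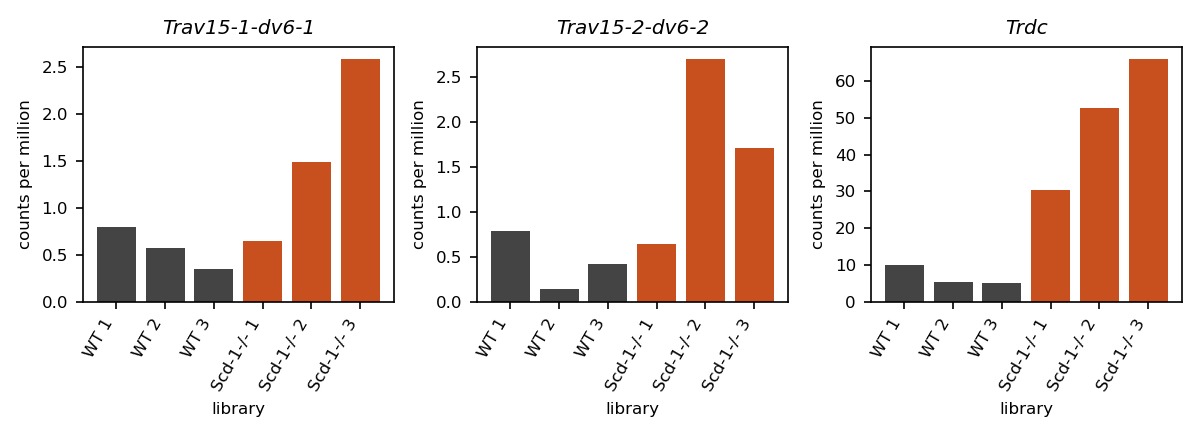
Level in CPM (vertical axes, each with its own scale) of Trav15-1-dv6-1, Trav15-2-dv6-2 and the delta constant region Trdc in each library (bars, 3 WT and 3 Scd-1-/-). The 2 segments are high in Scd-1-/- replicates 2 and 3 and Trdc in all 3 Scd-1-/- libraries.

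The lowest unadjusted p of all segments belonged to Trav3-1, also named after its values were seen. It had 37, 21 and 19 counts in WT and 15, 5 and 11 in Scd-1-/- libraries, without overlap (−1.35 on the log2 scale, SE 0.46, unadjusted p = 0.0193 and adjusted p = 0.376; edgeR). With the replicate block the adjusted p was 0.0833. The whole Trav3 subgroup, of which Trav3-1 is a small part, took 5.74% ± 1.04 and 5.24% ± 0.46 of the alpha counts. Among the 37 subgroups tested, 0 had an adjusted p under 0.05, and Trav10 was the other one with an unadjusted p under 0.05 (−0.66, SE 0.24, adjusted p = 0.408; edgeR).

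Position in the locus was compared by dividing the alpha array into 3 equal stretches. The stretch nearest the joining segments held 42 segments and took 63.2%, 58.9% and 62.1% of the alpha counts in WT and 61.1%, 67.0% and 65.3% in Scd-1-/- libraries. The farthest stretch held 34 segments and took 12.1% ± 2.05 and 10.2% ± 0.85. The genotypes overlapped in both. Segments with the copy letter d took 10.8% ± 1.85 and 11.1% ± 1.74, and those with n took 17.8% ± 1.63 and 16.003% ± 1.41, again with overlap. Most of the functional segments at 0 with an identical copy carry d or n. Their reads may be missing from these shares and from the stretches that hold them. The shares therefore compare the genotypes but do not measure use by position.

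Finally, diversity and distance were measured over all segments of a chain. The effective number of segments is the exponential of the Shannon entropy, that is, the number of equally used segments with the same entropy. For alpha it was 48.6, 48.5 and 46.4 in WT and 46.5, 48.3 and 47.1 in Scd-1-/- libraries. For beta it was 17.2, 17.6 and 17.7 in WT and 17.6, 17.6 and 17.7 in Scd-1-/- libraries. Both groups overlapped, with differences in means of −0.49 (exact two-sided permutation p = 0.6) and 0.13 (exact p = 0.7). The largest single segment took 6.29% to 7.85% of the alpha and 8.47% to 9.72% of the beta counts of a library. No library was thus dominated by 1 segment.

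The distance between a pair of libraries was the share of counts that would have to move to other segments to make their V use equal. For alpha, the distance was 12.52% to 14.5% within WT, 13.7% to 17.6% within Scd-1-/- and 13.4% to 16.7% between the genotypes. For beta, the ranges were 5.16% to 8.67%, 3.82% to 7.67% and 5.87% to 9.40%. The mean distance between the genotypes exceeded that within them by 0.77 percentage points for alpha and 1.17 for beta, each with an exact one-sided permutation p of 0.2 where 0.1 is the smallest possible. The sign of the alpha excess depended on single libraries, as given further below. With Hellinger distances, the excess was 1.07 for alpha (exact one-sided permutation p = 0.1) and 0.90 for beta (exact p = 0.2). With subgroups in place of segments, it was 1.98 for alpha (exact p = 0.1) and 0.63 for beta (exact p = 0.2).

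Pairs of libraries were compared by chi-square per degree of freedom, which is near 1 where counts agree within sampling noise, to see whether any library had been deposited under 2 labels. Within a genotype, the lowest value was 1.74 for alpha (WT replicates 1 and 3) and 1.61 for beta (Scd-1-/- replicates 2 and 3), so no such pair held the same counts. All 6 libraries were counted separately, but these values cannot show whether they were separate preparations.

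**Figure D5:**
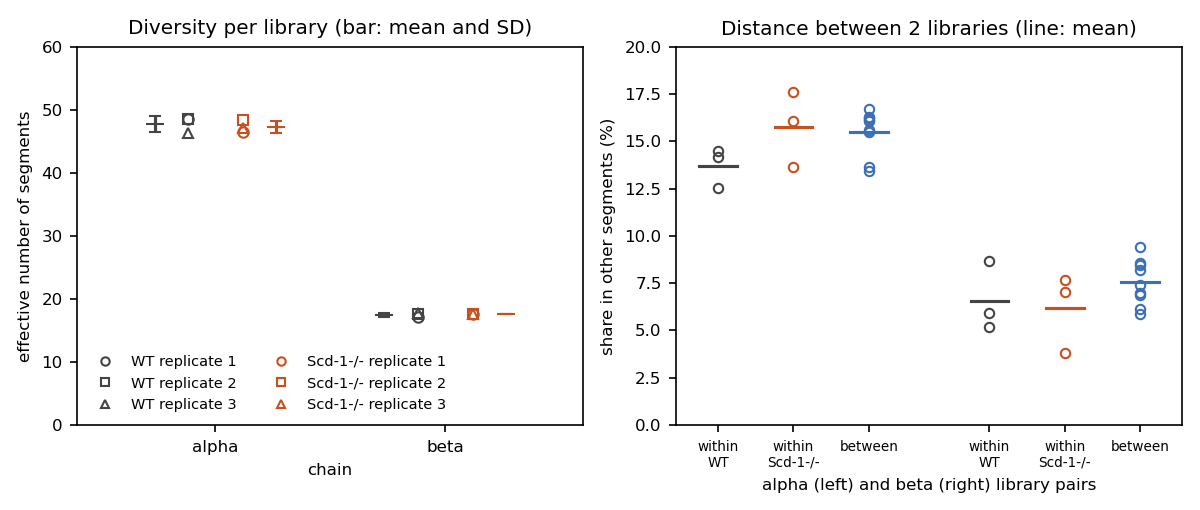
Left, effective number of alpha and beta segments (vertical axis) for each library, with the mean and SD (n = 3) of each genotype beside the symbols. Right, distance between each pair of libraries (percent of counts in other segments, vertical axis) within WT, within Scd-1-/- and between the genotypes, with a line at the mean. The effective numbers overlap between the genotypes for both chains, and the distances between the genotypes overlap those within them.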

How the data were processed

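RNA of 6 libraries of cultured CD8+ Teff cells, 3 WT and 3 Scd-1-/-, was analysed, with genotype and replicate number from the sample labels. The labels (Trizol, poly(A) RNA) and the methods (RNeasy columns, stranded total RNA) name different kits. The authors aligned reads with HISAT2 to GRCm38 (submitters' processing notes), counted them per gene with StringTie 1.3.0, and deposited raw counts and FPKM (counts per library total and per gene length, which for 97 of 102 V segments was that of all transcripts summed) for 34745 Ensembl genes. Of these 102 segments, 29 have more than 1 transcript. The strand setting and the treatment of multi-mapping reads are not given in the sources used here.

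Counts were tested with edgeR 4.0.16 (quasi-likelihood test, TMM scaling, mean FPKM of at least 1, 9627 genes, Benjamini-Hochberg adjustment over all of them); segments below it were fitted together with all 17192 genes that had counts. Single values were tested by exact permutation over libraries. A count of 0 allows up to 3 counts (0.112% to 0.173% of the alpha and 0.0346% to 0.0521% of the beta counts of a library). Positions and sequences are from GENCODE M21 on GRCm38, to which all 163 segments matched by identifier. Across the 9627 genes, deviations of same-numbered libraries from their group means had r of 0.595, 0.306 and 0.470, against −0.561 to 0.380 for other pairs, whereas over the V segments tested the same-numbered r were −0.015, −0.248 and −0.140. As the former were all over 0.1, a fit with the replicate number as a block was an alternative.

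Named segments were the 8 most abundant per chain, those past a threshold, the 5 with the largest fold change and the 3 with the largest ratio between libraries among those with a share of at least 1%, the most alike pairs, and Trav1, Trav11, Trav11d, Trbv1 and Trbv31. The members and lists were chosen with earlier results of these data known. Scripts were tested on simulated data. Alternatives were other scalings, filters, tools (DESeq2 1.42.0, limma 3.58.1 on log2 of FPKM plus 1 or 0.1), indices and omitted libraries.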

Additional observations from a re-analysis of the deposited data

How the results depend on the processing

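With 3 libraries a genotype, an exact test could not go below 0.1, and the depth of a chain (1735 to 8677 counts) limits shares to about 1 to 2 percentage points. The count of 0 segments past the thresholds of the study and of 0 with an adjusted p under 0.05 was the same in every fit to 5 or 6 libraries, including the replicate block (0 and 0). In replicates 2 and 3 alone, added after seeing the data, these counts were 1 (Trav15-2-dv6-2) and 2 (also Trav15-1-dv6-1), but this leaves out the Scd-1-/- library in which both segments lay at the WT level by count, so it is no evidence for them. The summed alpha fold change stayed below 0 in all fits (−0.28 to −0.03 with 1 library left out, −0.18 with the replicate block). The summed beta value was −0.05 with the replicate block, −0.20 to 0.086 with 1 library left out (above 0 without WT replicate 1) and 0.091 in replicates 2 and 3 alone. The replicate block changed no call of a segment or of a chain sum. Of the other genes named, it brought Trdc, Tyrobp, Klrb1c, Fcgr3 and Ighm to an adjusted p under 0.05 (edgeR), and so too the myeloid markers Cd14 and Itgam. The Scd-1-/- effective number was 1.03% lower for alpha and 0.75% higher for beta, and with subgroups in place of segments 3.17% and 4.65% higher. For alpha it was 3.26% lower without near-identical segments and 2.68% lower without Trav15-1-dv6-1 and Trav15-2-dv6-2. The number of alpha segments detected at a common depth was 2.28% lower. With all segments and 1 library left out, the alpha effective number ran from −2.52% (without WT replicate 3) to −0.19% (without Scd-1-/- replicate 1), and the beta one from −0.15% (without WT replicate 1) to 1.44% (without WT replicate 3). By the deposited FPKM the beta value was −0.18%, and per length of the longest transcript, added after seeing the data, 1.03%. The share difference of Trbv13-1 was −1.28 percentage points by the deposited FPKM, whose length for this segment (700 bases) sums 2 transcripts. The alpha distance excess ran from −0.21 to 2.04 with 1 library left out and the beta one from 0.96 to 1.64.

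Fold changes near 0 changed sign between settings, and no such value had an adjusted p under 0.05. With 1 library left out, the range was −0.19 to 0.22 for Trav12-2, −0.19 to 0.11 for Trav13-1, −0.13 to 0.33 for Trav14-2, −0.18 to 0.0060 for Trbv1, −0.34 to 0.011 for Trbv13-2, −0.10 to 0.16 for Trbv15 and −0.13 to 0.26 for Trbv16. It was −0.12 to 0.19 for Trbv19, −0.031 to 0.19 for Trbv2, −0.12 to 0.27 for Trbv29, −0.11 to 0.085 for Trbv3 and −0.21 to 0.15 for Trbv5. In replicates 2 and 3 alone it was 0.19 for Trav12-2, 0.040 for Trbv1, −0.034 for Trbv2 and 0.15 for Trbv3. Scaled to the V counts of the chain it was 0.19 for Trav12-2, 0.13 for Trav13-1 and 0.024 for Trbv3, and with the replicate block 0.012 for Trav12-2 and −0.016 for Trbv5. For Trbv19 and Trbv5 in turn it was −0.0026 and −0.0021 in DESeq2, −0.0048 and −0.0015 at an FPKM minimum of 5, −0.0031 and −0.0073 without one, and −0.0025 and −0.0025 with median-ratio size factors. In limma it was −0.0061 and −0.041 at a pseudocount of 1, and −0.0061 and −0.043 at 0.1. The cause was not tested. The other 398 fold changes and 239 of 240 share differences computed for named segments kept their direction and call or moved by less than 1 SD.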

Other observations

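Across the 76 alpha segments with a count, the mean shares of the genotypes had r = 0.962, and single pairs of libraries had r from 0.876 to 0.940. Across the 26 beta segments with a count, these values were 0.979 and 0.937 to 0.990. The points share their library totals, and genes are not independent replicates. Scd-1-/- replicate 1 held the highest share of 10 of the 38 abundant alpha segments and Scd-1-/- replicate 3 the lowest of 10, while the other libraries held the highest of 4 to 7. The ratio of the highest to the lowest library had a median of 1.82 over the 38 alpha and of 1.36 over the 19 abundant beta segments. The widest was 3.61 for alpha, in Trav7d-3, whose highest library (2.70%) was WT replicate 2 and lowest (0.75%) Scd-1-/- replicate 2.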
